A study of Mus musculus with 8 samples.

Results

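Dst, Macf1, Plec, Ahnak, Syne1 and Syne2 encode very large proteins that tie parts of the cytoskeleton to each other, to cell junctions or to the nuclear envelope. These 6 genes were picked by transcript name from a table of ribosome-protected fragments of mouse brain, in which 21874 genes had a protein-coding transcript. They held 78 of the 109463 listed transcripts, 62 of them protein-coding, and the most covered protein-coding transcript stood for each gene. That choice used the reads of all 8 libraries, and the genes were picked with results of these files known, so the levels and the pull-down values below describe the genes and do not test them.

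Brains were taken at postnatal day 5 from FVB mice of the Taiwanese model of SMA (spinal muscular atrophy). In this model the human SMN2 transgene supplies some survival motor neuron protein (SMN). The 3 SMN pull-downs and the 1 IgG pull-down came from healthy Smn+/-; SMN2tg/0 brains, whose lysates were digested with RNase I before ribosomes were pelleted and bound to an anti-SMN antibody or to IgG, the control for unspecific binding. The 2 RiboLace libraries, a capture of ribosomes in active translation, and the 2 polysome libraries, made from sucrose gradient fractions, came from early symptomatic Smn-/-; SMN2tg/0 brains. All 4 groups therefore carry SMN2tg/0, and between pull-downs and polysomes the genotype and the protocol cannot be told apart. Libraries of a group are biological replicates per the labels, and the IgG group has no replicate. In bulk tissue, fewer cells of a type and fewer footprints per cell cannot be told apart.

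Dst (dystonin), Macf1 (microtubule-actin crosslinking factor) and Plec (plectin) are plakins. Dst and Macf1 are spectraplakins, which bind actin through an amino-terminal domain and microtubules near the carboxyl terminus, and guide axon growth and neuron migration. Plectin links intermediate filaments to actin and to junctions. Ahnak is a giant scaffold protein beneath the plasma membrane that binds annexin and S100 proteins. Syne1 and Syne2 encode the nesprins, which reach from the outer nuclear membrane to actin and motor proteins and, with SUN proteins, form the LINC complex that positions nuclei. Loss of dystonin in mice causes a sensory neuropathy, and nesprin-1 mutations cause a cerebellar ataxia in people.

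Reads on 1 transcript per coding gene totalled 133295 to 237760 in the SMN pull-downs, 206690 in IgG, 39375 and 47846 in RiboLace, and 1661834 and 2295393 in polysomes. Levels are given as CPM, reads scaled to 1000000 of these reads. A read was thus worth 4.21 to 7.50 CPM in the SMN pull-downs, 20.9 and 25.4 CPM in RiboLace, and 0.436 and 0.602 CPM in polysomes. SMN replicate 2 stood apart, with a chi-square per gene of 3.18 and 3.26 against the other SMN replicates, which differed from each other by 1.34 and from IgG by 1.42 and 1.26. Neuron markers had the largest summed CPM of 8 cell type marker lists in each group (6102 to 11960 CPM). Smn1 stood at 97.5 to 159 CPM in the SMN pull-downs, 29.0 CPM in IgG, 30.7 and 33.6 CPM in polysomes, and 2 and 0 reads in RiboLace, so its reads do not separate the genotypes as labelled. Whether reads of the human SMN2 transgene, which all groups carry, are counted as Smn1 was not tested.

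The 6 genes together took 371, 216 and 818 reads in SMN replicates 1, 2 and 3, 759 reads in IgG, 23 and 26 reads in RiboLace, and 455 and 622 reads in polysomes. As a share of coding reads this was 0.258% ± 0.0914 (SD, n = 3) in SMN, and 0.367% in IgG. In RiboLace it was 0.0571% ± 0.0127 (SD, n = 2), and polysomes held 0.0272% ± 0.000199 (SD, n = 2). Every pull-down lay above every RiboLace library, and both RiboLace libraries above both polysome libraries. SMN replicate 2, at 0.162%, was the lowest of the pull-downs.

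Macf1 was the most read of the 6 genes in every library. It measured 1186, 488 and 1573 CPM in the SMN replicates, 1790 CPM in IgG, 209 and 305 CPM in RiboLace, and 119 and 113 CPM in polysomes. Dst, its closest relative, measured 788, 443 and 967 CPM in SMN, 1127 CPM in IgG, 83.6 and 178 CPM in RiboLace, and 50.5 and 56.2 CPM in polysomes. In both spectraplakins IgG was the highest library and SMN replicate 2 the lowest pull-down, and every pull-down lay above RiboLace and polysomes. The RiboLace values lay above the polysome values, but rested on 10 and 12 reads for Macf1 and 4 and 7 for Dst. With counting error only, the 95% interval of RiboLace replicate 1 was 100 to 384 CPM for Macf1 and 22.8 to 214 CPM for Dst. Both intervals hold the polysome values. Those of RiboLace replicate 2, 157 to 532 CPM for Macf1 and 71.5 to 366 CPM for Dst, lie above the polysome values. The share of all genes with this order of libraries was not measured.

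Plec measured 253, 52.5 and 265 CPM in the SMN replicates, 227 CPM in IgG, 41.8 and 102 CPM in RiboLace, and 20.5 and 10.9 CPM in polysomes. Its SMN replicate 2 rested on 7 reads and fell within the RiboLace range, while the other pull-downs lay above it. Ahnak measured 188, 188 and 328 CPM in SMN, 299.97 CPM in IgG, 41.8 and 76.2 CPM in RiboLace, and 38.5 and 35.7 CPM in polysomes. For Ahnak the pull-downs lay above all other libraries, and the RiboLace values rested on 2 and 3 reads.

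Syne1 had another order within the SMN pull-downs. It measured 137, 353 and 198 CPM in SMN, 135 CPM in IgG and 31.3 and 34.4 CPM in polysomes, with 1 and 0 reads in RiboLace. SMN replicate 2, the lowest SMN library for the spectraplakins, Plec and Syne2, was here the highest of all. Syne2 measured 130, 97.5 and 109 CPM in SMN, 91.9 CPM in IgG and 13.8 and 20.9 CPM in polysomes, with 4 and 0 reads in RiboLace. A count of 0 in RiboLace replicate 2 allows up to 76.2 CPM (3 counts, counting error only), so the RiboLace level of the nesprins could not be ordered against polysomes.

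**Figure D1:**
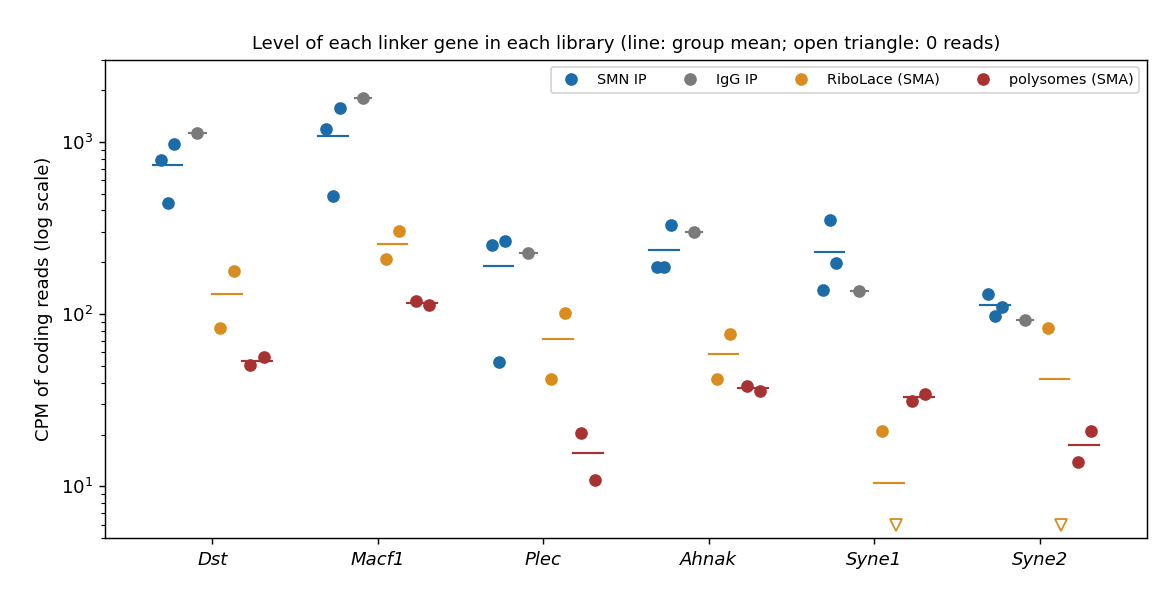
Level of each linker gene in each of the 8 libraries, in CPM of coding reads on a log axis, coloured by group, with a short line at each group mean and an open triangle for a library with 0 reads. The pull-downs of Dst and Macf1 lie above 400 CPM and their polysome libraries at or below 119 CPM, and the open triangles are RiboLace replicate 2 of Syne1 and Syne2.

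Divided by the length of the coding region, the polysome level of the represented transcript was 11.5 CPM per kilobase for Syne1, 5.26 for Macf1, 3.31 for Dst, 2.19 for Ahnak, 1.19 for Plec and 0.842 for Syne2. In IgG the order was Macf1 with 81.1 CPM per kilobase, Dst with 69.8, Syne1 with 47.5, Ahnak with 17.7, Plec with 17.3 and Syne2 with 4.46. In the SMN pull-downs Syne1 came first with 80.4 CPM per kilobase, before Macf1 with 49.1 and Dst with 45.4, which did not differ from each other beyond their spread. That first place came from SMN replicate 2, where Syne1 had 124 CPM per kilobase. In replicates 1 and 3 Syne1 had 48.2 and 69.4, below Macf1 with 53.8 and 71.3. Syne2 was the lowest of the 6 in all groups with the represented transcripts. Summed over coding transcripts, Ahnak was lower than Syne2 in SMN, RiboLace and polysomes, and with the longest coding region Plec was lower in RiboLace. The place of Plec also moved with the sum, to 10.0 CPM per kilobase in polysomes and 128 in IgG. Ahnak, with 2 coding transcripts against 21 for Plec, then had 1.39 and 9.10. The place of Syne1 depended on the transcript taken: with its longer listed coding region it stood at 14.2 CPM per kilobase in SMN and 18.3 in IgG.

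The first question was whether the SMN antibody brought down more linker footprints than IgG did. No linker gene passed the test in this comparison (edgeR quasi-likelihood fit, adjusted p = 0.999 by Benjamini-Hochberg for each of the 6). Over all 5517 genes tested, 0% were called higher and 0.0181% lower, with 99 genes higher and 49 lower at an unadjusted p under 0.05, and DESeq2 called 0 genes. The log2 fold changes of SMN over IgG were -0.60 (SE 0.44) for Dst, -0.70 (SE 0.44) for Macf1, -0.21 (SE 0.51) for Plec and -0.31 (SE 0.49) for Ahnak. They were 0.76 (SE 0.54) for Syne1 and 0.30 (SE 0.59) for Syne2.

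Leaving out 1 SMN replicate at a time moved Macf1 between -1.09 and -0.36 and Dst between -0.87 and -0.35. Without SMN replicate 2 the value of Plec was 0.19, on the other side of 0, and that of Syne1 was 0.35. With 1 IgG library and SEs near 0.5, differences of the size seen were not detectable. The median of the 6 log2 fold changes was -0.26, beside 0.03 for all genes tested and -0.20 for the 54 other genes tested whose coding region was at least 10000 nucleotides.

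RiboLace was compared with polysomes within the Smn-/-; SMN2tg/0 brains, so the genotype was shared. The protocol and active translation cannot be told apart in this comparison. None of the 6 genes passed, against 1.31% of 10807 genes called higher and 0.925% called lower (edgeR quasi-likelihood test). Macf1 came closest, with a log2 fold change of 1.09 (SE 0.35, edgeR adjusted p = 0.0712) from 10 and 12 RiboLace reads. The values were 1.19 (SE 0.53) for Dst, 2.15 (SE 0.83) for Plec, 0.59 (SE 0.76) for Ahnak, 1.32 (SE 0.94) for Syne2 and -1.56 (SE 1.29) for Syne1, with edgeR adjusted p-values between 0.161 and 0.783.

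These values depended on the library and the transcript. Without RiboLace replicate 2 they were 0.79 for Macf1, 0.57 for Dst and 1.40 for Plec, and without replicate 1 they were 1.26, 1.59 and 2.61, with edgeR adjusted p-values from 0.325 to 0.756. With the longest coding region Dst had 0.51 (edgeR adjusted p = 0.790) and Plec 0.56 (edgeR adjusted p = 0.914), while Macf1 had 1.12 (edgeR adjusted p = 0.0932). Summing each gene over its coding transcripts changed 3 calls: Macf1 with 1.04 (edgeR adjusted p = 2.50e-06), Dst with 1.16 (edgeR adjusted p = 0.000977) and Plec with 1.10 (edgeR adjusted p = 0.0197) then passed. Whether that sum counts a read more than once is not known, because the counting of reads that match several isoforms is not given. Models of one gene with the same lengths had equal counts in 13.1% of 259 library comparisons. Macf1 also passed with DESeq2 (adjusted p = 0.0450) and with a minimum count of 50 (edgeR adjusted p = 0.00850); over all alternatives its adjusted p ranged from 2.50e-06 to 0.616. The median of the 6 genes was 1.14, beside -0.29 for all genes tested.

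Both pull-downs held far more linker footprints than the SMA polysomes. All 6 genes were called higher in SMN over polysomes, where 16.4% of 6484 genes were called higher and 11.1% lower (edgeR quasi-likelihood test). All 6 were also called higher in IgG over polysomes, where 10.3% of 12709 genes were called higher and 9.15% lower. The IgG calls and SEs rest on the spread of the 2 polysome libraries (common dispersion 0.00244, against 0.0770 in the fit of SMN and IgG), so the SEs of IgG over polysomes leave out the spread between pull-downs. In the fit of all 8 libraries, which includes that spread, the SEs were 0.33 to 0.56, the values 2.25 to 4.61, and all 6 were called. These 2 comparisons share the polysome libraries, and the transcripts had been chosen for their reads in the same libraries, so nothing is read from the counts.

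Among the plakins, Dst had a log2 fold change of 4.06 (SE 0.34) in SMN over polysomes, a ratio of 16.6, and of 4.58 (SE 0.15) in IgG over polysomes, a ratio of 24.0. Macf1 had 3.50 (SE 0.40), a ratio of 11.3, in SMN and 4.15 (SE 0.14), a ratio of 17.7, in IgG. Plec had 4.02 (SE 0.42), a ratio of 16.2, in SMN and 4.11 (SE 0.34), a ratio of 17.3, in IgG. The 3 plakins thus took ranks 7, 11 and 8 of the 6484 genes in the first comparison and ranks 9, 11 and 12 of the 12709 genes in the second.

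Ahnak had a log2 fold change of 3.03 (SE 0.25), a ratio of 8.14, in SMN over polysomes and 3.21 (SE 0.25), a ratio of 9.28, in IgG over polysomes. Syne2 had 2.90 (SE 0.32), a ratio of 7.47, in SMN and 2.55 (SE 0.44), a ratio of 5.87, in IgG. Syne1 had 3.01 (SE 0.29), a ratio of 8.03, in SMN and 2.23 (SE 0.34), a ratio of 4.68, in IgG. The scaffold and the nesprins ranked 21, 25 and 22 in the first comparison and 40, 103 and 208 in the second. Without SMN replicate 2 the SMN values were 4.29 for Dst, 3.84 for Macf1, 4.35 for Plec, 3.13 for Ahnak, 2.64 for Syne1 and 2.94 for Syne2.

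**Figure D2:**
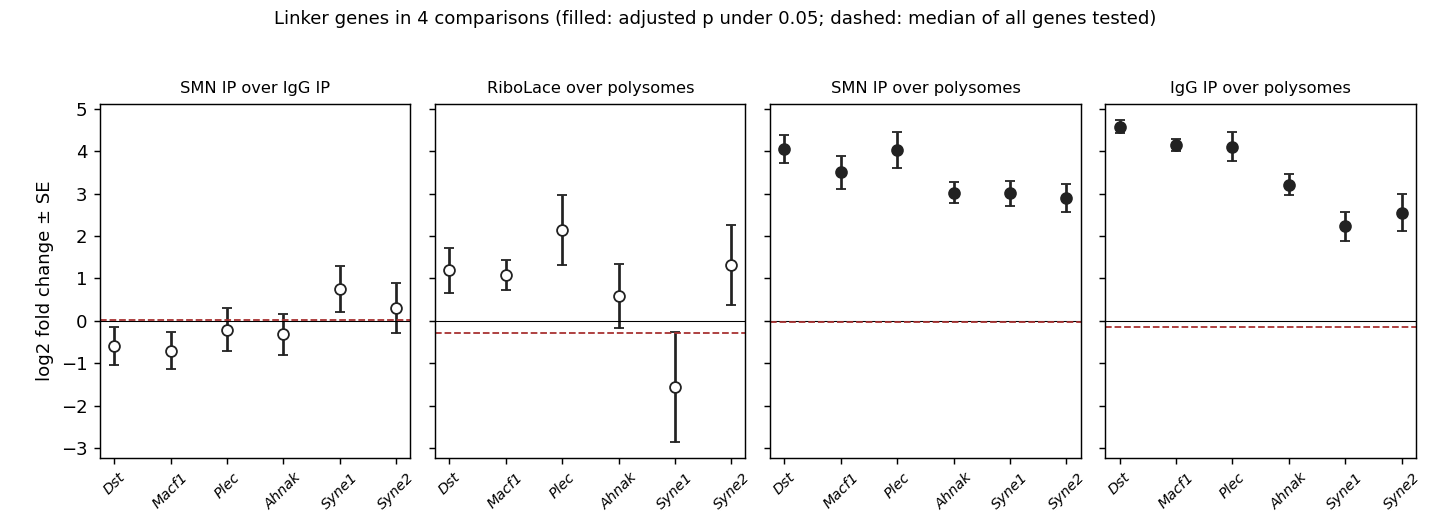
Log2 fold change with its SE for the 6 linker genes in 4 comparisons, filled where the adjusted p (edgeR) was under 0.05, with a dashed line at the median of all genes tested. The points of both comparisons of a pull-down with polysomes lie between 2.23 and 4.58, and no point is filled in the other panels.

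Long coding regions as a class were higher in the pull-downs, and this was measured over genes that exclude the 6. In SMN over polysomes the median log2 fold change was -0.36 for coding regions under 500 nucleotides, 0.23 from 2000 to 4000, 1.00 from 6000 to 10000, and 1.49 at 10000 or more, where 45 of 53 genes were called higher and 0 lower. In IgG over polysomes the corresponding medians were -0.58, 0.23, 1.08 and 1.40, with 42 of 65 genes called higher and 0 lower at 10000 or more. In RiboLace over polysomes they ran from 0.05 to -0.33, -0.21 and -0.14.

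Dst, Macf1 and Plec stood above that trend. None of the 53 other long genes in SMN over polysomes, and none of the 65 in IgG over polysomes, had a larger log2 fold change than any of them. Ahnak was passed by 1 of 53 and 2 of 65, and Syne2 by 1 of 53 and 6 of 65. Syne1 was represented by a coding region of only 2850 nucleotides. Its values of 3.01 and 2.23 compare with medians of 0.23 in both comparisons for genes of 2000 to 4000 nucleotides. That transcript was chosen for its reads over all 8 libraries, pull-downs included, so this excess is not independent of the choice. Represented by Syne1-201, of 4296 nucleotides, Syne1 had 0.29 and 0.77. Genes of 4000 to 6000 nucleotides had medians of 0.76 and 0.78 in the main fits. The genes of at least 10000 nucleotides, linkers included, held 2.15% ± 0.114 (SD, n = 3) of coding reads in SMN, and 2.36% in IgG. They held 0.807% ± 0.0509 (SD, n = 2) in RiboLace, and in polysomes 0.828% ± 0.00701 (SD, n = 2).

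**Figure D3:**
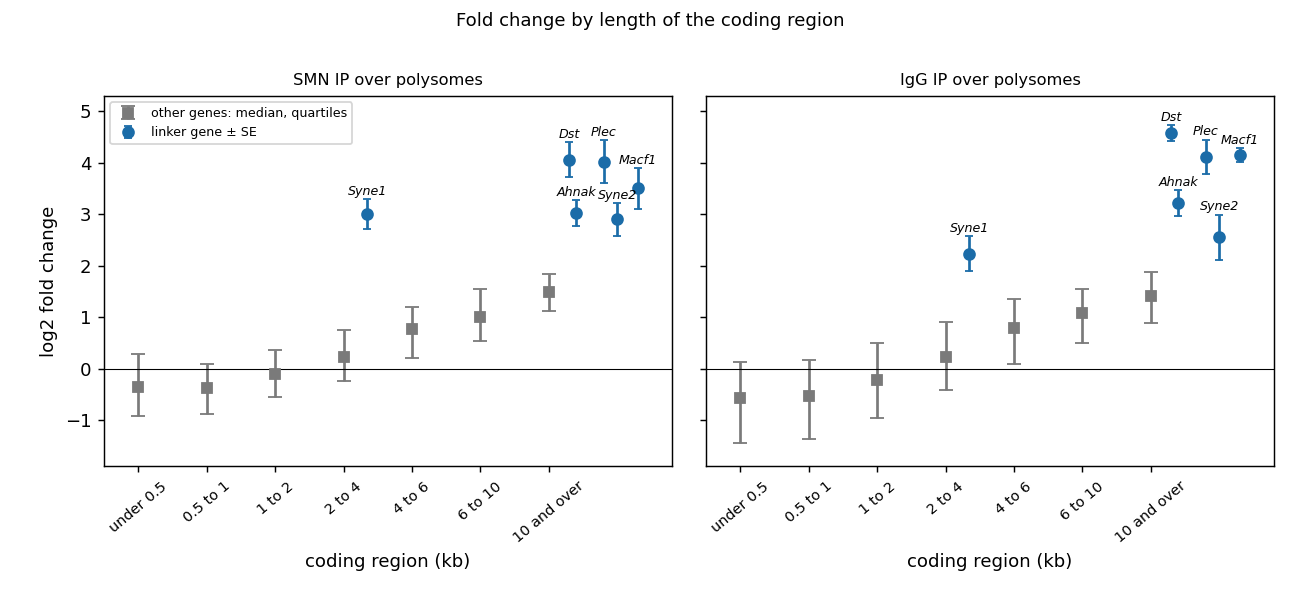
Log2 fold change against the length of the coding region, with the median and quartiles of all other genes tested in each length class (grey) and each linker gene with its SE (blue, drawn to the right of its class). The grey medians climb to 1.49 and 1.40 in the longest class, and all 6 linker genes lie above the upper quartile of their class.

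The isoforms were examined by fitting every listed transcript as a feature of its own, a step added after the data were seen. Isoforms share reads, so they are not replicates of each other, and the counting of reads that match several transcripts is not given in the labels or file headers. Dst had 13 protein-coding transcripts with 14 to 855 reads over the 8 libraries, Macf1 14 with 70 to 1452, Plec 21 with 1 to 217, Syne2 10 with 0 to 151, and Ahnak and Syne1 2 each. The represented transcripts were Dst-002 with a coding region of 16140 nucleotides, Macf1-013 with 22062, Plec-016 with 13161, Ahnak-202 with 16971, Syne1-202 with 2850 and Syne2-201 with 20625. Coding transcripts with at least 50% as many reads as the most covered one, itself included, numbered 4 in Dst, 8 in Macf1 and 13 in Plec.

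In both spectraplakins the models with only a 5′ untranslated region listed (5′-only) had smaller differences than those with only a 3′ one (3′-only). Plec has no tested 3′-only model, and its 5′-only models are set beside its models with both untranslated regions. The 3′-only models do not all measure the 3′ end alone. Those of Dst include Dst-001, Dst-015 and Dst-201, with coding regions of 15528 to 22221 nucleotides. Those of Macf1 include Macf1-008, Macf1-009 and Macf1-203, with 13290 to 16437. The short ones are Dst-009, with 4917 nucleotides, and Macf1-002, Macf1-003 and Macf1-010, with 1049 to 1635. In IgG over polysomes the 5′-only models Dst-004 and Dst-007 had log2 fold changes of 0.96 (SE 0.61) and 1.85 (SE 0.50). The 3′-only models of Dst, 4 in number, ranged from 3.99 to 4.29, with the short Dst-009 at 4.29 (SE 0.25). Low as well was Dst-003, a shorter model of 7746 coding nucleotides with both untranslated regions, at 2.06 (SE 0.55). The 5′-only models Macf1-005 and Macf1-007 both had 2.63 (SE 0.24 each), whereas the 3′-only models of Macf1, 6 in number, ranged from 3.71 to 4.30. Among these the short Macf1-002, Macf1-003 and Macf1-010 had 3.86, 4.00 and 4.30. The 5′-only models of Plec, 5 in number, ranged from 1.94 to 2.94 with SEs up to 1.33, and its 13 models with both untranslated regions from 3.38 to 4.07.

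SMN over polysomes gave the same order for both spectraplakins: 2.18 (SE 0.38) for Dst-007 beside 2.25 (SE 0.42) for Dst-003 and 3.56 to 4.13 for the 3′-only models, and 2.31 (SE 0.31) and 2.46 (SE 0.28) for Macf1-005 and Macf1-007 beside 3.27 to 3.54. The short 3′-only models had 4.13 for Dst-009 and 3.44 to 3.54 for Macf1-002, Macf1-003 and Macf1-010. The difference between models of a gene was not tested. Over all coding transcripts the median log2 fold change in IgG over polysomes was -0.49 for 5′-only models and 0.34 for 3′-only models, and in SMN over polysomes -0.13 and 0.44. The 5′-only models thus lay below the 3′-only models over all coding transcripts, as in Dst and Macf1. Models with no untranslated region listed had medians of 0.12 and 0.30 in the same order, and those with both -0.35 and -0.18. In IgG over polysomes the models of Dst with none ranged from 2.95 to 4.50. That of Macf1, Macf1-011, had 4.35 (SE 0.52), beside 4.30 (SE 0.45) for Macf1-010, the highest of its 3′-only models. Which part of the gene a model without untranslated regions covers is not given.

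The reads behind this can be seen in the short models. Dst-009, a 3′-only model with a coding region of 4917 nucleotides, took 51, 34 and 95 reads in the SMN replicates, 93 in IgG and 35 and 39 in polysomes. Dst-004 and Dst-007 together took 14, 6 and 29 reads in SMN, 20 in IgG and 45 and 67 in polysomes. Per kilobase the 3′ model was 4.80, 7.47 and 4.32 times the 5′ models in SMN, 6.13 times in IgG, and 1.03 and 0.767 times in polysomes, with no overlap between pull-downs and polysomes. For Macf1, 3 short 3′-only models stood to Macf1-005 and Macf1-007 as 1.07, 2.72 and 1.94 in SMN, 2.05 in IgG, and 0.700 and 0.849 in polysomes, again without overlap. RiboLace had too few reads on these models (4 and 0 on Dst-009) for a ratio to be read. The share of all genes with such a gap between pull-downs and polysomes was not measured.

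For Syne2 the ends could not be compared in the fit. The short 5′-only models of Syne2 together took 4, 0 and 1 reads in SMN, 0 in IgG and 6 and 13 in polysomes, and none was tested. The short 3′-only models took 15, 7 and 24 reads in SMN, 20 in IgG and 46 and 58 in polysomes. Its 3′-only models Syne2-006 and Syne2-007 had log2 fold changes of 1.99 (SE 0.53) and 1.13 (SE 0.58) in IgG over polysomes, beside 1.92 (SE 0.42) and 2.06 (SE 0.42) for the full-length models Syne2-001 and Syne2-201. In SMN over polysomes they had 1.94 (SE 0.41) and 1.41 (SE 0.44), beside 2.26 (SE 0.30) and 2.55 (SE 0.30).

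Syne1 was listed in the table with 2 transcripts, both far shorter than the giant nesprin-1 form, so the values say nothing of that form. Syne1-202, with a coding region of 2850 nucleotides, took 19, 47 and 47 reads in SMN, 28 in IgG, 1 and 0 in RiboLace and 52 and 79 in polysomes. Syne1-201, with 4296 nucleotides, took 12, 9 and 6 reads in SMN, 16 in IgG, 4 and 0 in RiboLace and 81 and 126 in polysomes. Syne1-202 exceeded Syne1-201 in all 4 pull-downs, by 1.58 to 7.83 times, and lay below it in both polysome libraries, at 0.642 and 0.627 times. The share of all genes with such a pair of transcripts was not measured. In the transcript fit Syne1-202 had a log2 fold change of 2.67 (SE 0.35) in SMN over polysomes and 1.74 (SE 0.34) in IgG over polysomes, while Syne1-201 had -0.06 (SE 0.38) and 0.27 (SE 0.38). Represented by Syne1-201, Syne1 was called in neither comparison, with 0.29 (edgeR adjusted p = 0.591) and 0.77 (edgeR adjusted p = 0.177), where its other alternatives reached adjusted p-values as low as 7.75e-27 and 8.21e-08.

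**Figure D4:**
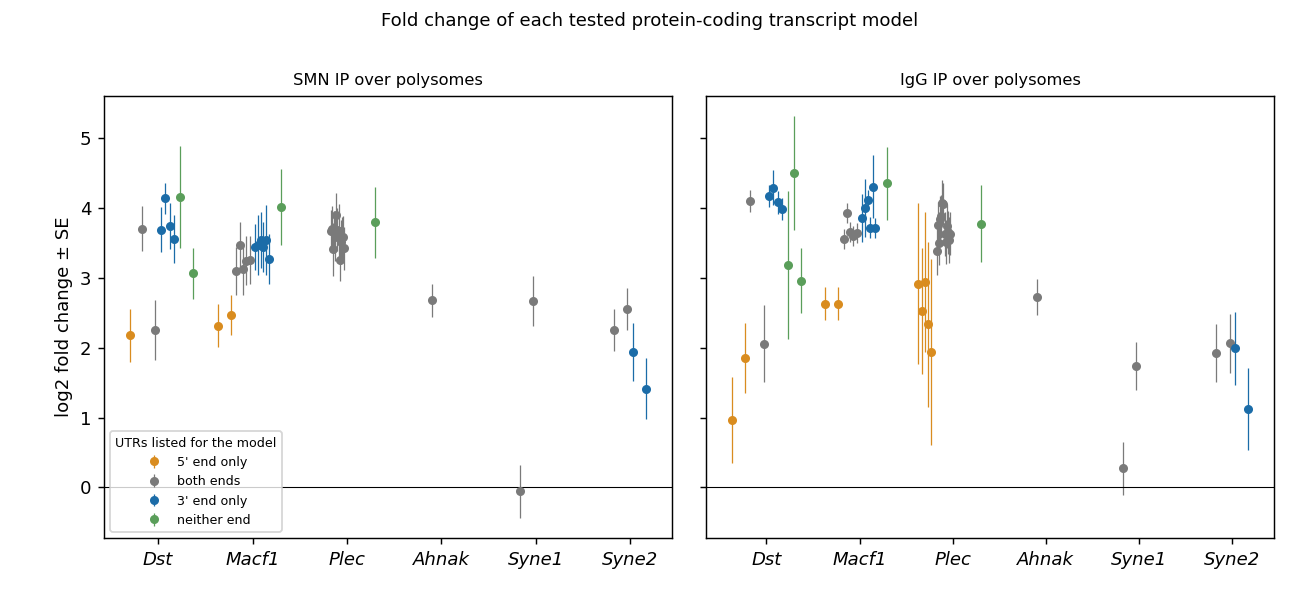
Log2 fold change with its SE of each tested protein-coding transcript model of the 6 genes, in SMN over polysomes (left) and IgG over polysomes (right), coloured by the untranslated regions listed for the model. In Dst and Macf1 the models with only a 5′ untranslated region listed lie below those with only a 3′ one. The lower point of Syne1 is Syne1-201.

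Partners of the linkers were listed by role. Of 5 plakin and Ahnak relatives in the table, Ahnak2, the close relative of Ahnak, was the only one tested in SMN over polysomes. It had 18, 8 and 12 reads in SMN, 14 in IgG, 2 and 4 in RiboLace and 11 and 26 in polysomes. Its log2 fold changes were 3.26 in SMN over polysomes (edgeR adjusted p = 0.000427), 3.05 in IgG over polysomes (edgeR adjusted p = 1.93e-05) and 2.83 in RiboLace over polysomes (edgeR adjusted p = 0.0308). Desmoplakin (Dsp), the plakin of desmosomes, passed in IgG over polysomes with 2.83 (edgeR adjusted p = 0.0347) from 5 IgG reads. Envoplakin (Evpl) had 0 reads in IgG and 0 to 2 in SMN. Of the 4 relatives tested in IgG over polysomes, only 2 had positive log2 fold changes. The values ranged from -7.03 to 3.05 with a median of -1.49, beside -0.13 for all genes tested.

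The LINC complex and the lamina anchor the nesprins. Of their genes 1 of 7 tested rose in SMN over polysomes and 1 fell (median log2 fold change -0.48), beside 16.4% higher and 11.1% lower over all genes, and in IgG over polysomes 2 of 11 rose and 1 fell (median -0.65), beside 10.3% and 9.15%. These shares lie near those of all genes. Sun1, the nesprin-binding protein of the inner nuclear membrane, was called higher in SMN over polysomes with 1.52 (edgeR adjusted p = 0.0150) and in IgG over polysomes with 1.63 (edgeR adjusted p = 0.0174). Lamin A/C (Lmna) was called lower in SMN over polysomes with -1.28 (edgeR adjusted p = 0.0312). Lamin B1 (Lmnb1), the most read of them, stood at 165 CPM in SMN, 174 CPM in IgG, 176 CPM in RiboLace and 285 CPM in polysomes and passed in no comparison. Emerin (Emd), an inner nuclear membrane protein, and Tmem43 passed in none either.

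Among microtubule end-binding and cortical proteins, with which the spectraplakins act, 5 of 14 tested rose in SMN over polysomes and 0 fell, with a median of 0.79, beside 16.4% higher and 11.1% lower over all genes. In IgG over polysomes 9 of 15 rose and 2 fell, with a median of 0.77, beside 10.3% and 9.15%. Map1b, a microtubule-associated protein of growing axons, had log2 fold changes of 1.44 (edgeR adjusted p = 0.00114) and 1.19 (edgeR adjusted p = 8.27e-05). Clasp2, which stabilises microtubule plus ends, had 0.76 (edgeR adjusted p = 0.0869) and 0.86 (edgeR adjusted p = 0.000828).

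Intermediate filament genes, whose products plectin and dystonin bind, had 4 of 7 members called higher in SMN over polysomes and 0 lower, with a median of 0.92, again beside 16.4% and 11.1% of all genes. In IgG over polysomes 1 of 10 rose and 1 fell, with a median of -0.39, a share near the 10.3% and 9.15% of all genes. Neurofilament light (Nefl) had 1.11 (edgeR adjusted p = 0.0134) and 0.18 (edgeR adjusted p = 0.561) in the same order. The annexin and S100 partners of Ahnak had 0 of 3 higher and 2 lower in SMN over polysomes, where 11.1% of all genes were lower, and 0 of 8 higher and 2 lower in IgG over polysomes, where 9.15% were. S100a10, which links annexin to Ahnak, had -1.71 (edgeR adjusted p = 0.0236). In SMN over IgG no gene of these partner lists was called. In RiboLace over polysomes Ahnak2 was the only one called.

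Cell type markers also differed between the groups. The 10 meningeal fibroblast and mural markers summed to 2199 to 3669 CPM in SMN, 3058 CPM in IgG, 648 and 914 CPM in RiboLace, and 1047 and 1302 CPM in polysomes, with at most 3 of them at 0 in any library. In SMN over polysomes 3 of 8 tested were higher and 1 lower, with a median of 0.55, beside 16.4% and 11.1% of all genes. In IgG over polysomes 1 of 10 was higher and 0 lower, with a median of 0.07, beside 10.3% and 9.15%. Col3a1, a fibrillar collagen, had log2 fold changes of 3.30 in SMN over polysomes and 3.51 in IgG over polysomes, and Fbln1, a matrix protein, had -0.53 and -0.49. The 10 endothelial markers summed to 324 to 675 CPM in SMN, 513 CPM in IgG and 462 and 478 CPM in polysomes. The 10 neuron markers summed to 8666 to 9526 CPM in SMN, 9463 CPM in IgG and 6102 and 6641 CPM in polysomes. The 8 blood cell markers summed to 5309 and 6375 CPM in RiboLace and 1917 and 2601 CPM in polysomes, and 4 of 5 tested were higher in RiboLace, beside 1.31% of all genes. The 7 microglia markers summed to 130 to 285 CPM in SMN, 121 CPM in IgG and 344 and 357 CPM in polysomes, with 2 of 4 tested lower in SMN and 3 of 7 lower in IgG. The 8 oligodendrocyte lineage markers summed to 648 to 1155 CPM in SMN, 527 CPM in IgG and 802 and 1015 CPM in polysomes. Their part in the linker values was not tested.

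Over the 8 libraries the log2 CPM profiles of Dst and Macf1 were each other's near neighbours, with a Pearson r of 0.987 among 4779 genes of at least 50 CPM. The nearest other genes were Sptbn4, Smarca4 and Macf1 for Dst (0.987 each), Shank1 (0.983) and Prpf8 (0.981) after Dst for Macf1, and Dst (0.987), Smarca4 (0.985) and Pde4dip (0.980) for Ahnak. Plec lay nearest to Gtf2i (0.986), Gnb1 (0.976) and Tnc (0.975). The nesprins had other neighbours: Baz1b (0.989), Ctbp1 (0.988) and Osbpl5 (0.979) for Syne1, and Tmem132a (0.975) and Nup205 (0.967) for Syne2. Syne1 and Syne2 reached 0.870 with each other, and Dst reached 0.621 with Syne1 and 0.571 with Syne2. These are descriptions over 8 libraries of 4 groups, which share depth and protocol within a group.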

How the data were processed

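The deposited table gives raw read counts per Ensembl transcript for 8 libraries, with transcript, untranslated and coding lengths, per the file headers. Trimmomatic 0.36, Bowtie2 2.2.6, SAMtools and the GRCm38.p4 build are named in the submitters' processing notes. For reads that match several transcripts, the counting is not given in those sources. Pairs of models of one gene with equal transcript, untranslated and coding lengths were compared in libraries where they held at least 10 reads together. Their counts were equal in 13.1% of 259 library comparisons, with a mean chi-square of 0.712 against an even split. For each coding gene, the coding transcript whose library-scaled total was highest was used. CPM use the sum of these counts. Comparisons used edgeR 4.0.16 in R 4.3.3 (quasi-likelihood, robust, two-sided, TMM, filterByExpr with a minimum count of 10, only the groups compared, Benjamini-Hochberg over all genes tested, adjusted p under 0.05). The lone IgG library was assumed to vary like the other group. The SE is the log2 fold change over the square root of F. Alternatives used DESeq2 1.42.0, limma-voom (limma 3.58.1), library totals, other filters, all 8 libraries, other transcript choices, the replicate number as a block and each library left out. The block fits used replicates 1 and 2 only.

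The genes and lists were chosen with earlier results of these data known. The genes named were the 6 linkers, the 3 most read genes of each partner list and the 3 nearest profiles (prior count 2), of which 1 is not reported here; Fbln1, Col3a1, Smn1, Sun1 and Lmna were named outside that rule, after their values were seen. The RiboLace libraries differed by little more than sampling noise (chi-square per gene 1.05, p = 0.0497) and were kept as 2 samples. The edgeR fit of each comparison was also run on simulated counts with known changes, drawn with the dispersion of the main fit. The alternative fits and the other statistics were not run on simulated counts. Intervals and floors cover counting error only. RiboLace and polysome libraries of control genotype were not analysed here. Tables and figures were made with pandas 2.3.3, matplotlib 3.10.9 and Python 3.11.15.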

Additional observations from a re-analysis of the deposited data

How the results depend on the processing

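Of the fold changes of single linker genes under the alternatives, 74 in SMN over IgG kept direction and side of the threshold and 2 reversed: Plec without SMN replicate 2 (0.19, in a range of -0.56 to 0.19 over the left-out replicates) and Syne1 with its longest coding region (-0.44). In RiboLace over polysomes 70 kept both, 5 passed the threshold and 1 reversed, Syne2 without RiboLace replicate 1 (-7.58, a fitted value with 0 reads in the remaining library and no bound, beside 2.16 without replicate 2). In SMN over polysomes 87 kept both and 6 lost the call, and in IgG over polysomes 59 and 1. The number of linker genes called in RiboLace over polysomes was 0 and became 1 with DESeq2, 1 of 2 tested with a minimum count of 50, and 3 when summed over coding transcripts. In SMN over polysomes it was 6 and became 3 of 3 tested with a minimum count of 50. Leaving out 1 library left 0 to 0 called in SMN over IgG, 0 to 0 in RiboLace over polysomes (1 gene tested without either polysome library) and 6 to 6 in SMN over polysomes.

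With the replicate block, SMN over polysomes called 1 linker gene (Dst, edgeR adjusted p = 0.0457; the others 0.101 to 0.131) and RiboLace over polysomes 0. The numbers alone are shared: deviations of same-numbered libraries correlated at -0.00559 and 0.0154. No paired analysis was possible for SMN over IgG and IgG over polysomes because they share only 1 number. IgG over polysomes without a polysome library was not fitted, since no residual degrees of freedom remain.

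Over all genes, calls higher and lower in SMN over polysomes were 1062 and 719. They were 9 and 0 with the block, 636 and 1578 with library totals, where the median of all genes moved from -0.02 to -0.31, 850 and 378 with DESeq2, 1023 and 372 with limma-voom, 908 and 1215 without a filter, 194 and 166 with a minimum count of 50, 681 and 434 summed over transcripts, 1921 and 1398 with noncoding genes, 103 and 38 or 106 and 40 without polysome replicate 1 or 2, and 441 and 154, 1755 and 1593, or 376 and 91 without SMN replicate 1, 2 or 3. In IgG over polysomes they were 1311 and 1163, 452 and 161 with DESeq2, 1448 and 465 with limma-voom, 1049 and 1824 with library totals, 703 and 393 in the fit of all libraries, 2141 and 1912 summed and 2364 and 1971 with noncoding genes. In RiboLace over polysomes they were 142 and 100, 179 and 5 with DESeq2, 0 and 0 with limma-voom (825 and 838 at an unadjusted p under 0.05), 58 and 0 with the block, 258 and 75 with a minimum count of 50, 69 and 1 in the fit of all libraries, 143 and 65 with the longest coding region, 243 and 51 summed, 723 and 562 with noncoding genes, 31 and 2 or 54 and 1 without RiboLace replicate 1 or 2, and 111 and 72 or 111 and 60 without polysome replicate 1 or 2. The cause was not tested. In RiboLace 3 counts were worth 62.7 and 76.2 CPM, which limits the linker values there.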
